A study of Mus musculus with 18 samples.

Results

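Of 43629 gene IDs in the count table, 9 are genes for neuropeptides that cortical interneurons make: Sst, Npy, Cort, Tac1, Vip, Penk, Pnoc, Cck and Nppc. They were taken by name from a list drawn up with earlier results of these data known, so counts over the 9 are not those of an unselected set, and all 9 passed the filter on low counts, which left 15671 genes. Cultured mouse cortical neurons received a lentivirus on day 7 in vitro, and their poly(A) RNA, taken 10 days later, was sequenced in 18 libraries of 3 groups. The lentivirus carried PSMB8, the immunoproteasome's β5i subunit, in the Psmb8 group, PSMB5, the β5 subunit of the standard proteasome, in the Psmb5 group, and the red fluorescent protein mScarlet as a control in the mSc group. Each group had 6 libraries, numbered 1 to 6. One protocol text names an Ifng construct for all samples, which goes against the treatment tags and the design text, and the groups here follow the tags. The labels give neither the strain, age and number of the animals, nor the promoter of the constructs, nor whether libraries came from separate cultures, so p-values measure only the spread between these libraries.

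Library totals were 16091906 to 18630396 counts in the Psmb8 group, 16055974 to 19640543 in the Psmb5 group and 15337511 to 21074229 in the mSc group. In CPM, counts scaled to a common library size, Psmb8 averaged 887 ± 198 in the Psmb8 group, 5.03 ± 5.48 in the Psmb5 group and 6.28 ± 7.76 in the mSc group, and Psmb5 averaged 48.3 ± 1.91 in the Psmb8 group, 452 ± 113 in the Psmb5 group and 42.9 ± 1.49 in the mSc group (SD, n = 6 each), so both transcripts matched the labels in every library. Markers of neurons were plentiful: the median over the 18 libraries was 705 CPM for Slc17a7, the glutamate transporter of excitatory neurons, and 259 CPM for Gad1, the main GABA-synthesising enzyme. Glia were also present, with medians of 376 CPM for the astrocyte gene Slc1a3 and 131 CPM for the oligodendrocyte precursor gene Pdgfra. The microglial gene Tmem119 had at most 1 count and the endothelial gene Cldn5 had 0 counts in every library.

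Neuropeptides are cut from longer precursor proteins by prohormone convertases, stored in dense-core granules and released when a neuron fires strongly. They act on receptors that are mostly coupled to G proteins, so they modulate circuits more slowly and more widely than GABA does. In cortex they also define interneuron classes: somatostatin, with cortistatin and much of neuropeptide Y, marks cells that contact the dendrites of pyramidal neurons, and vasoactive intestinal peptide marks cells that inhibit other interneurons. Transcription of several peptide genes is known to follow neuronal activity and cyclic AMP through the factor CREB, which binds the cyclic AMP response element.

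That element is the sequence feature that the members could be compared on. The 250 bases before the RefSeq start site (build GRCm38.p6) were given for 7 of the 9 genes, all but Penk and Pnoc, and were searched on both strands. The full palindrome TGACGTCA occurred in 1 of the 7, Sst, and in 1.55% of 32851 mouse promoters. Its first 6 letters, TGACGT, or their reverse complement ACGTCA, which overlap every full palindrome, occurred in Sst and Vip and in 6.47% of all promoters. The 5-letter core TGACG or its reverse complement CGTCA, contained in both longer forms, occurred in 5 of the 7 (Sst, Vip, Cort, Cck and Tac1) and in 17.8% of all promoters. Shown here are the nearest sites of 4 of them, 5′ to 3′ on the gene's strand, with the matched letters of this core in capitals. A match describes letters only.
Sst, chr16:23890874-23890903, minus strand, palindrome beginning 48 bases before the start: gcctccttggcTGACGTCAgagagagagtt
Vip, chr10:5639118-5639217, plus strand, site beginning 79 bases before the start: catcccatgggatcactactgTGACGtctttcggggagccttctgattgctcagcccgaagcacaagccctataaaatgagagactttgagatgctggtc
Cort, chr4:149126764-149126863, minus strand, site beginning 18 bases before the start: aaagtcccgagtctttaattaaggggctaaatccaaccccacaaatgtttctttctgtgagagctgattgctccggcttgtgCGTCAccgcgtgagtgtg
Cck, chr9:121495695-121495794, minus strand, site beginning 47 bases before the start: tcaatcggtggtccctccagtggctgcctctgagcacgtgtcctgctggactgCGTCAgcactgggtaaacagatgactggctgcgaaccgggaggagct
For Sst the stretch is short because GENCODE's transcript begins farther upstream than RefSeq's and its first exon contains this site. Npy and Nppc held no such core within these 250 bases.

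The 9 transcripts differed widely in level. Divided by exonic length in GENCODE's annotation of GRCm38, which allows genes to be compared, Sst stood at 282 ± 85.8 CPM per kilobase in the Psmb8 group, 204 ± 82.4 in the Psmb5 group and 218 ± 75.8 in the mSc group (SD, n = 6 each). Cck, whose peptide cholecystokinin is made by a class of basket cells and also by pyramidal neurons, stood at 229 ± 64.2, 218 ± 58.5 and 227 ± 63.3 CPM per kilobase in the Psmb8, Psmb5 and mSc groups. These leading genes overlapped each other and lay above Npy without overlap in all 3 groups. In the mSc group the order went on with Npy at 31.3, Cort at 24.3, Nppc at 19.7 and Penk at 18.1 CPM per kilobase, and each of these 4 overlapped the next. Pnoc (7.08) and Vip (3.08) were lower than the gene before them without overlap, and Tac1 (2.38) overlapped Vip. In the Psmb8 group Penk, Pnoc, Vip and Tac1 each overlapped the next, and in the Psmb5 group Nppc came before Cort. With the length of the longest transcript in place of all exons, Cck came to 374, 356 and 370 CPM per kilobase in the Psmb8, Psmb5 and mSc groups and stood first in each.

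**Figure D1:**
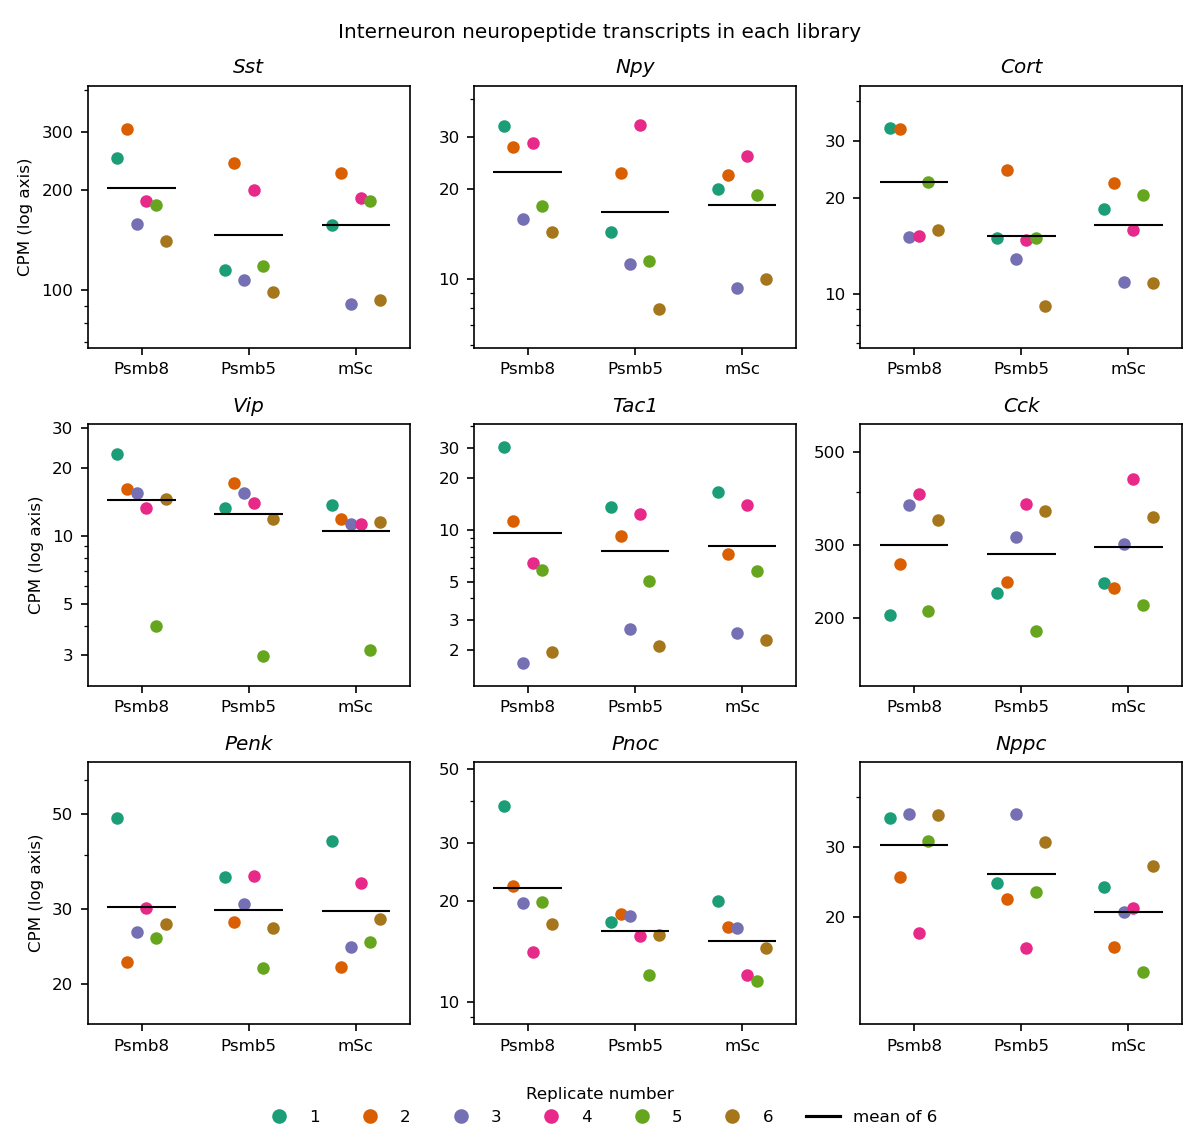
CPM of the 9 neuropeptide genes in each library, on a log axis, with the Psmb8, Psmb5 and mSc groups from left to right; colours give the replicate number and the black line the mean of the 6 libraries. In every gene the groups overlap, and libraries of 1 number tend to lie at like heights in the 3 groups, as number 5 does for Vip.

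The comparison of Psmb8 with mSc asks which transcripts respond to the immunoproteasome subunit. All 9 members had a log2 fold change above 0, against 50.3% of all tested genes, and the median over the members was 0.37, against 0.00 over all tested genes. In the fit without replicate numbers, 0 of the 9 passed the adjusted threshold of 0.05, where 0.00638% of all genes were called (Psmb8 alone). Of the 9, 2 (Nppc and Pnoc) had an unadjusted p under 0.05, against 2.17% of all genes. DESeq2 and limma-voom without the numbers called none of the 9 in any of the 3 comparisons. The same numbers in different groups paired the libraries, however, and with the number as a block 1 of the 9, Nppc, was called higher, against 0.115% of all genes called higher. With that block 6 of the 9 (Nppc, Pnoc, Vip, Cort, Sst and Npy) had an unadjusted p under 0.05, against 10.7% of all genes, and the median over the members was 0.40. In that fit too, all 9 were above 0, against 50.4% of all genes. The members moved together, however. With group and number means removed, r was positive in 30 of 36 pairs of members, with a median of 0.54. The counts over the 9 are therefore not counts of separate observations. No member's Psmb8 libraries all lay above its mSc libraries, which was so for 0.0702% of all genes. Because RNA was taken from whole cultures, more cells of a type and more RNA per cell cannot be told apart in any of these values.

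Nppc encodes C-type natriuretic peptide, which raises cyclic GMP through the receptor Npr2. Its lowest, median and highest library had 18.2, 33.2 and 36.3 CPM in the Psmb8 group, 16.7, 23.7 and 36.2 CPM in the Psmb5 group, and 14.5, 20.8 and 26.9 CPM in the mSc group. Psmb8 libraries were mostly above those of mSc, but the groups overlapped, and in number 4 the Psmb8 library lay below its mSc partner. Nppc rose in Psmb8 against mSc with the block, by 0.55 on the log2 scale (SE 0.11, adjusted p = 0.0329), and was higher in 5 of 6 pairs, as 14.3% of all genes were in at least 5. Without the block the difference was 0.56 (SE 0.19, adjusted p = 1.0). The call rested on the full set of libraries: with 1 number left out of the blocked fit it held only without number 4 (0.70, adjusted p = 6.26e-04), and over the leave-out fits the fold change ran between 0.45 and 0.70 with an adjusted p of up to 0.252. Against Psmb5, Nppc was higher in Psmb8 in 6 of 6 pairs, by 0.25 (SE 0.11, adjusted p = 0.605) with the block. Psmb5 against mSc gave 0.30 (SE 0.11, adjusted p = 0.624), higher in 5 of 6 pairs, as 13.0% of all genes were in at least 5.

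Pnoc encodes the precursor of nociceptin, an opioid-related peptide that acts on its own receptor. Its lowest, median and highest library had 14.1, 19.9 and 38.8 CPM in the Psmb8 group, 12.04, 16.6 and 18.4 CPM in the Psmb5 group, and 11.6, 15.6 and 20.1 CPM in the mSc group. The Psmb8 library of number 1 lay far above the rest, and the groups overlapped. In the pairs Pnoc was higher in Psmb8 than in mSc in 6 of 6, which 3.17% of all tested genes did, with a blocked log2 difference of 0.50 (SE 0.11, adjusted p = 0.056), and 0.53 (SE 0.20, adjusted p = 1.0) without the block. Left without number 1, the blocked value was 0.39 (adjusted p = 0.0686). Without the Psmb8 library of number 1 alone, the value without the block was 0.29.

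Vip encodes vasoactive intestinal peptide, whose receptors raise cyclic AMP. Its lowest, median and highest library had 4.01, 15.1 and 23.1 CPM in the Psmb8 group, 2.95, 13.6 and 17.2 CPM in the Psmb5 group, and 3.14, 11.4 and 13.8 CPM in the mSc group. In each group the lowest was number 5, which lay well apart from the other 5. Vip was higher in Psmb8 than in mSc in 6 of 6 pairs, by 0.22 to 0.74 on the log2 scale, the narrowest spread among the 6 peptides with the larger differences (SD 0.18). The blocked log2 fold change was 0.44 (SE 0.10, adjusted p = 0.056), against 0.47 (SE 0.39, adjusted p = 1.0) without the block. The value without the block was 0.27 when the mSc library of number 5 was left out and 0.28 when the Psmb8 library of number 1 was.

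Sst, Cort and Npy, often made by the same interneurons, were higher on average in Psmb8 than in mSc but were not called. Sst encodes somatostatin, an inhibitory peptide, and its lowest, median and highest library had 141, 184 and 305 CPM in the Psmb8 group, 98.8, 117 and 242 CPM in the Psmb5 group, and 90.9, 172 and 226 CPM in the mSc group. Cort encodes cortistatin, a relative that shares the somatostatin receptors, and had 15.1, 19.1 and 33.1 CPM in the Psmb8 group, 9.17, 14.9 and 24.4 CPM in the Psmb5 group, and 10.8, 17.2 and 22.3 CPM in the mSc group. Npy encodes neuropeptide Y, which dampens transmitter release, and had 14.4, 22.7 and 32.5 CPM in the Psmb8 group, 7.96, 12.9 and 32.8 CPM in the Psmb5 group, and 9.31, 19.5 and 25.8 CPM in the mSc group. The lowest library of each gene was higher in the Psmb8 group than in the others, yet all groups overlapped. Against mSc the blocked log2 fold changes in Psmb8 were 0.40 for Sst (SE 0.11, adjusted p = 0.129, higher in 4 of 6 pairs), 0.42 for Cort (SE 0.11, adjusted p = 0.0926, 5 of 6) and 0.38 for Npy (SE 0.13, adjusted p = 0.267, 5 of 6).

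Tac1, Cck and Penk stood apart from these 6. Tac1 encodes the precursor of substance P and neurokinin A; its lowest, median and highest library had 1.68, 6.11 and 30.5 CPM in the Psmb8 group, 2.13, 7.15 and 13.7 CPM in the Psmb5 group, and 2.29, 6.54 and 16.7 CPM in the mSc group. Its pairs were split, with Psmb8 over mSc between -1.10 in number 4 and 0.86 in number 1, and the blocked log2 fold change was 0.10 (SE 0.20, adjusted p = 0.922). Cck had 203, 307 and 396 CPM in the Psmb8 group, 186, 278 and 376 CPM in the Psmb5 group, and 215, 272 and 431 CPM in the mSc group. Its blocked log2 fold change of Psmb8 against mSc was 0.01 (SE 0.06, adjusted p = 0.973). Penk, the enkephalin precursor, had 22.5, 27.0 and 48.9 CPM in the Psmb8 group, 21.7, 29.4 and 35.8 CPM in the Psmb5 group, and 21.8, 26.7 and 43.2 CPM in the mSc group, and its blocked value was 0.03 (SE 0.08, adjusted p = 0.948). Penk overlaps the exons of an opposite-strand transcript, and since the strand setting of the counts is not given, their reads cannot be told apart. For Cck and Penk the small standard errors of the blocked fit bound any difference between the groups more closely than for Tac1.

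**Figure D2:**
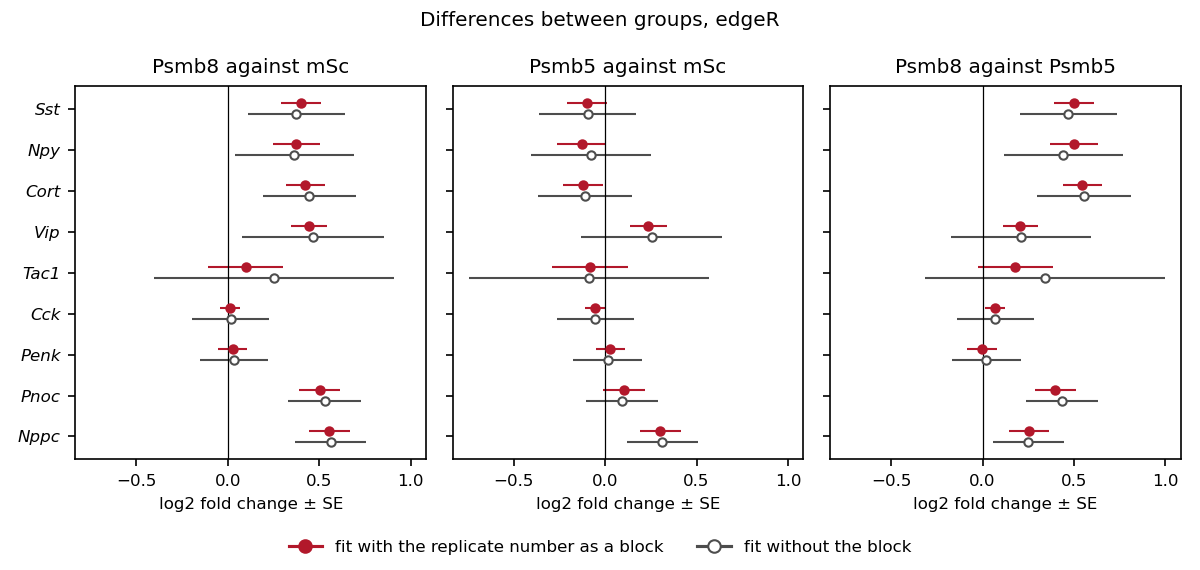
Log2 fold change with its standard error for each gene in the 3 comparisons, from the fit with the replicate number as a block (filled) and without it (open). Nppc, Pnoc, Vip, Cort, Sst and Npy lie between 0.38 and 0.55 in Psmb8 against mSc with the block, while Cck, Penk and Tac1 lie between 0.01 and 0.10.

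The comparison of Psmb8 with Psmb5 sets the immunoproteasome subunit against its standard counterpart. Without the block 0 of the 9 members were called, where 0.0128% of all genes were (Psmb8 and Psmb5 alone). Of the 9, 2 had an unadjusted p under 0.05, against 1.33% of all genes. With the block again 0 of 9 were called, where 0.0383% of all genes were, and 6 (Cort, Sst, Npy, Pnoc, Nppc and Vip) had an unadjusted p under 0.05, against 7.64% of all genes. Cort had the smallest p: it was higher in Psmb8 in 6 of 6 pairs, which 2.3% of all genes were, by 0.54 on the log2 scale (SE 0.11, adjusted p = 0.0852), although its groups overlapped, as those of every member did; 0.0447% of all genes lay wholly higher in Psmb8. Sst and Npy were each higher in 5 of 6 pairs, as 12.7% of all genes were in at least 5, by 0.50 (SE 0.11, adjusted p = 0.116) for Sst and 0.50 (SE 0.13, adjusted p = 0.238) for Npy. Pnoc gave 0.40 (SE 0.11, adjusted p = 0.297), Vip 0.21 (SE 0.10, adjusted p = 0.644), Tac1 0.18 (SE 0.21, adjusted p = 0.912), Cck 0.07 (SE 0.06, adjusted p = 0.847) and Penk -0.00 (SE 0.08, adjusted p = 0.998). Left without number 4, the block called Sst (0.62, adjusted p = 0.0086), Npy (0.69, adjusted p = 0.0146) and Cort (0.64, adjusted p = 0.0086). Left without number 1, it called none of the 9, and all 6 were smaller, at 0.38 for Sst, 0.36 for Npy, 0.41 for Cort, 0.22 for Pnoc, 0.20 for Nppc and 0.07 for Vip.

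The comparison of Psmb5 with mSc asks about more of the standard subunit. In either fit 0 of the 9 members were called, where 0.00638% of all genes were (Psmb5 alone). Without the block 0 had an unadjusted p under 0.05, against 0.944% of all genes; with it 2 did, Nppc and Vip, against 6.87% of all genes. The blocked log2 fold changes ran between -0.13 for Npy and 0.30 for Nppc, with Vip at 0.24 (SE 0.10, adjusted p = 0.675), and 4 of the 9 were above 0, against 51.0% of all genes. Libraries of the groups overlapped for all 9, where 0.0255% of all genes lay wholly higher in Psmb5. Both comparisons with mSc share its 6 libraries, and both with Psmb5 share that group's, so their values are given side by side and not as separate evidence. For Sst the blocked values were 0.40 in Psmb8 against mSc, -0.10 in Psmb5 against mSc and 0.50 in Psmb8 against Psmb5.

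**Figure D3:**
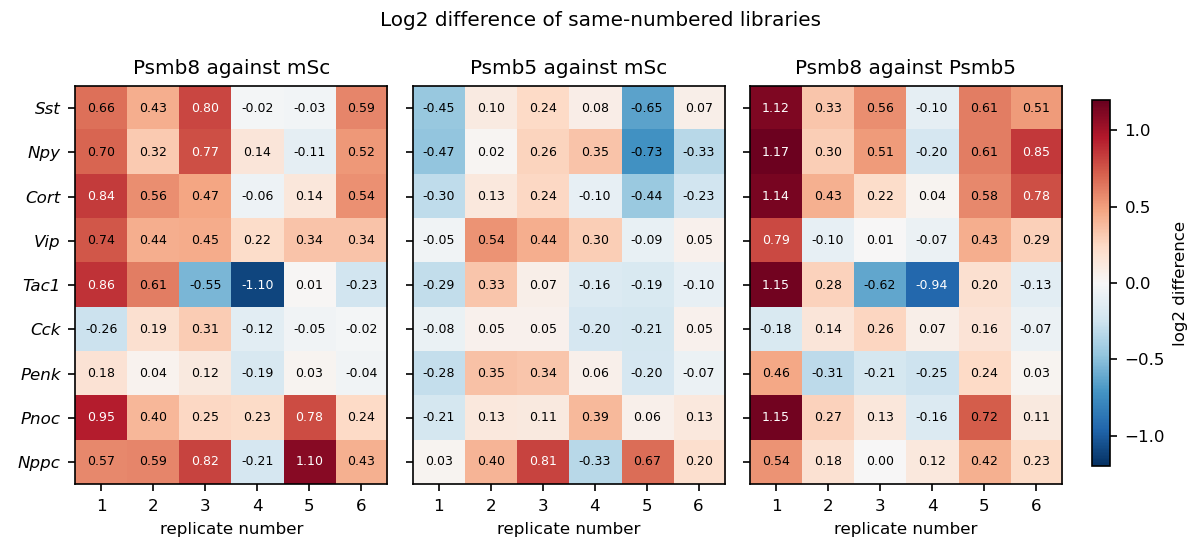
Log2 CPM difference of same-numbered libraries for each gene (rows) and replicate number (columns), red where the first-named group was higher and blue where it was lower. In Psmb8 against mSc numbers 1 to 3 are red for nearly all genes, number 4 holds 3 of 9 differences above 0, and in Psmb5 against mSc number 1 holds 1 of 9.

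By replicate number the differences of Psmb8 from mSc were uneven. In number 1, 8 of the 9 members were higher in Psmb8, with a median log2 difference of 0.70; in number 2 all 9 were higher (0.43), in number 3, 8 (0.45), in number 4, 3 (-0.06), in number 5, 6 (0.03) and in number 6, 6 (0.34). The medians of numbers 4 and 5 were nearest to 0, and that of number 1 was the highest. The Psmb8 library of number 1 also had the highest summed level of the 22 genes of GABAergic identity, 1945 CPM, against 1632 in Psmb5 and 1757 in mSc of that number. Without number 1, the blocked fit put Psmb8 over mSc at 0.34 for Sst, 0.29 for Npy, 0.32 for Cort, 0.36 for Vip, 0.55 for Nppc and -0.22 for Tac1, and called none of the members (Nppc, adjusted p = 0.0506). Without number 4 it called Nppc, Sst (0.48, adjusted p = 0.0305), Cort (0.51, adjusted p = 0.0211), Vip (0.49, adjusted p = 0.0442) and Pnoc (0.55, adjusted p = 0.0238).

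In each of the 9 members the replicate number took a larger share of the variation than the group did. With 6 numbers and 3 groups, the number takes the larger share by chance too, so these shares are not on equal terms. With the group held fixed, 64.3% of all tested genes differed between numbers in edgeR's test, and so did all 9 members, with adjusted p from 3.8e-09 for Cck to 0.0013 for Nppc. The number accounted for 93.7% of the variation of log2 CPM in Cck, 92.4% in Tac1 and 92.1% in Vip, and for 46.7% in Nppc and 49.4% in Pnoc, against a median of 66% over all tested genes. The group accounted for 30.4% in Nppc, 27.9% in Pnoc, 21.1% in Cort, 18.3% in Sst, 13.6% in Npy, 4.7% in Vip, 0.6% in Cck, 0.2% in Penk and 0.1% in Tac1, against a median of 4.7%. Tac1 averaged 20.3 ± 8.98 CPM in number 1 and 2.12 ± 0.17 CPM in number 6 (SD over the 3 libraries of a number), a ratio of 9.59. Vip averaged 16.7 ± 5.53 CPM in number 1 and 3.37 ± 0.57 CPM in number 5, a ratio of 4.97. The other 7 members differed between their highest and lowest number by 1.68 to 2.69 times.

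**Figure D4:**
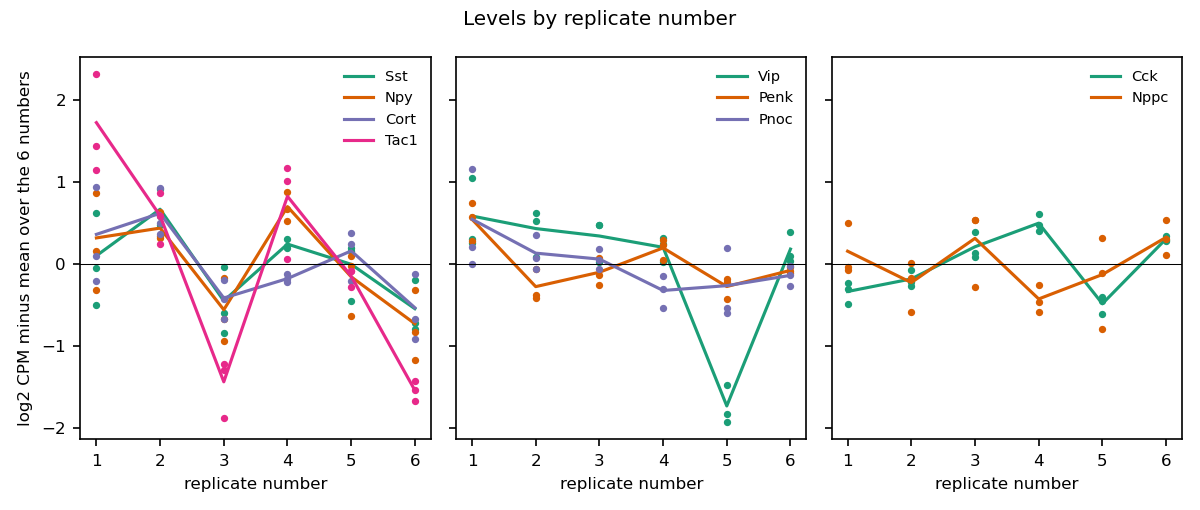
Log2 CPM of each gene by replicate number, as the difference from its mean over the 6 numbers; dots are the 3 libraries of a number and lines join the log2 of their mean CPM. Sst, Npy, Cort and Tac1 are low in numbers 3 and 6, Vip is low in number 5, and Cck and Nppc are high in number 6.

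Sst, Npy, Cort and Tac1 shared a pattern over the numbers, with the lowest levels in numbers 3 and 6. Sst averaged 119 ± 35.1 CPM in number 3 and 111 ± 26.0 in number 6, against 258 ± 41.8 in number 2, its highest. In those same numbers the 30 activity-regulated genes, such as immediate early genes, summed to 8495 and 8235 CPM, against 4464 to 5879 in the other 4. Psmb8 was highest there too in the groups that did not receive it. In the mSc group, libraries 3 and 6 had 12.2 and 19.4 CPM of Psmb8, against 0.84 to 2.59 in the others. In the Psmb5 group they had 8.37 and 14.6 CPM, against 0.49 to 3.10. The summed GABAergic genes were also lowest there, at 1082 and 1048 CPM, against 1182 to 1778. Several other lists were lowest in numbers 3 and 6 as well. Oligodendrocyte lineage markers summed to 345 and 295 CPM there, against 635 to 923 in the other 4, and receptors of the member peptides to 664 and 653 CPM, against 728 to 936. Vascular markers summed to 18.9 and 19.0 CPM, against 23.0 to 47.5. Other lists went the other way and were highest in numbers 3 and 6. Microglial markers summed to 62.62 and 63.15 CPM there, against 49.27 to 60.82. Precursors of other neuropeptides summed to 3776 and 3851 CPM there, against 2545 to 2988. Genes of peptide processing and granules summed to 11710 and 11820 CPM, against 8938 to 11090. This list shares the granule gene Scg2 (1197 ± 553 CPM in the mSc group) with the activity-regulated genes. Their 2 sums are therefore not separate observations. Among the members, Nppc was highest in these numbers, at 31.0 and 31.3 CPM. Astrocyte markers summed to 2791 and 2733 CPM in numbers 3 and 6, against 2984 to 3106 in numbers 2, 4 and 5 and 6944 in number 1. The part of these lists, and of Psmb8, in the members' levels was not tested. Without numbers 3 and 6 the blocked log2 fold changes of Psmb8 against mSc were 0.27 for Sst, 0.27 for Npy, 0.39 for Cort, 0.47 for Vip, 0.62 for Pnoc and 0.52 for Nppc, none of them called.

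Genes that followed each member most closely over the 18 libraries, with group means removed, were sought among 11090 others at 5 CPM or more; since 3 libraries share each number, these likenesses carry no test. The closest to Sst was Mtfp1 (Pearson r = 0.957, Spearman rho = 0.963), a mitochondrial fission gene, then Ramp3 (0.952 and 0.953), a partner of calcitonin-family receptors. Vip was most like Adarb2 (0.914 and 0.771) and Prox1 (0.892 and 0.831), both markers of interneurons from the caudal ganglionic eminence, from which Vip cells come. With the means of the numbers removed as well, r was 0.863 for Sst with Mtfp1, 0.728 for Sst with Ramp3, 0.709 for Vip with Prox1 and 0.314 for Vip with Adarb2. Pnoc was most like Reln (0.802 and 0.882), the reelin gene, Npy most like Tpi1 (0.973 and 0.936), a glycolytic enzyme, and Cort most like Slc29a1 (0.957 and 0.946), a nucleoside transporter. Cck led with Arf1 (0.970 and 0.938), a regulator of vesicle traffic, Tac1 with Smim20 (0.958 and 0.948), Penk with Specc1 (0.930 and 0.880) and Nppc with Tmem259 (0.918 and 0.911). Among the members Sst and Npy were most alike (0.893 and 0.915). With the number means removed it was Vip and Penk (r = 0.967), ahead of Sst and Npy (r = 0.919).

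Other genes of interneurons and of peptide handling were counted in Psmb8 against mSc with the block, where 0.325% of all genes were called. Of 21 tested genes of GABAergic identity 0 were called and 14 were above 0, against 50.4% of all genes. The median log2 fold change over the list was 0.09. Unadjusted p was under 0.05 in 5 that were higher and 0 that were lower, against 10.7% of all genes. Gad1 stood at 0.15 (SE 0.05, adjusted p = 0.275) and Lhx6, a transcription factor of Sst and Pvalb interneurons, at 0.26 (SE 0.09, adjusted p = 0.282). In Psmb8 against Psmb5 with the block 0 of the 21 were called, and the median was 0.12, against -0.00 over all genes. Unadjusted p was under 0.05 there in 7 that were higher and 0 that were lower, against 7.64% of all genes. Gad1 stood at 0.20 (SE 0.05, adjusted p = 0.238) and Lhx6 at 0.32 (SE 0.09, adjusted p = 0.319) in that comparison. Per library the members were also set against the mean log2 level of Gad1, Gad2 and Slc32a1, the GABA vesicle transporter. Between paired libraries that mean differed by 0.17 ± 0.17 in Psmb8 against Psmb5 (SD, n = 6 pairs). It differed by -0.08 ± 0.11 in Psmb5 against mSc and by 0.09 ± 0.20 in Psmb8 against mSc. Relative to it the difference was 0.46 ± 0.35 for Nppc, 0.39 ± 0.28 for Pnoc, 0.34 ± 0.12 for Vip and 0.33 ± 0.18 for Cort, each above 0 in 6 of 6 pairs, and 0.32 ± 0.25 for Sst and 0.30 ± 0.26 for Npy, each in 5 of 6. It was -0.15 ± 0.62 for Tac1 (above 0 in 2 of 6 pairs), -0.08 ± 0.29 for Cck (3 of 6) and -0.06 ± 0.11 for Penk (2 of 6). How many of all genes were above 0 in 6 of 6 such pairs was not counted. In Psmb5 against mSc the ratio differed by 0.38 ± 0.40 for Nppc, 0.28 ± 0.25 for Vip and 0.19 ± 0.23 for Pnoc. For Cort, Sst and Npy it differed there by -0.03 ± 0.22, -0.02 ± 0.29 and -0.07 ± 0.41. In Psmb8 against Psmb5 it was 0.37 ± 0.33 for Npy, 0.36 ± 0.26 for Cort and 0.335 ± 0.24 for Sst. There it was 0.20 ± 0.32 for Pnoc, 0.08 ± 0.10 for Nppc and 0.05 ± 0.20 for Vip.

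Among 15 tested subclass markers that encode no peptide, 1 was called lower and 0 higher. Of the 15, 12 were above 0, against 50.4% of all genes, with a median log2 fold change of 0.11. Unadjusted p was under 0.05 in 4 that were higher and 1 that was lower, against 10.7% of all genes. Lamp5, a membrane protein gene that marks neurogliaform interneurons, averaged 19.9 ± 5.91 CPM in the Psmb8 group and 25.7 ± 9.31 CPM in the mSc group (SD, n = 6 each), and was lower in Psmb8 in 6 of 6 pairs, as 2.5% of all genes were. It fell by 0.35 on the log2 scale (SE 0.07, adjusted p = 0.0317) with the block; without it the adjusted p was 1.0. Left without number 2, 3, 4 or 6 in turn, Lamp5 was not called either (adjusted p up to 0.121), while without number 1 or 5 it was.

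None of the 15 tested precursors of other neuropeptides was called, and 10 were above 0, against 50.4% of all genes. Unadjusted p was under 0.05 in 3 that were higher and 2 that were lower, against 10.7% of all genes. Pthlh, which encodes parathyroid hormone-related protein, was higher in Psmb8 in 6 of 6 pairs, as 3.17% of all genes were. Its log2 difference was 0.51 (SE 0.14, adjusted p = 0.123). In Psmb5 against mSc Pthlh stood at 0.46 (SE 0.14, adjusted p = 0.526), and in Psmb8 against Psmb5 at 0.06. Of 28 tested genes of peptide processing and granules 0 were called, with a median of 0.03. Here unadjusted p was under 0.05 in 4 that were higher and 2 that were lower. Pcsk2, a prohormone convertase, was lower in 6 of 6 pairs, as 2.5% of all genes were. Its log2 difference was -0.13 (SE 0.04, adjusted p = 0.176), and the granule gene Scg2 stood at 0.29 (SE 0.10, adjusted p = 0.239). In Psmb5 against mSc Pcsk2 stood at -0.07 (SE 0.04) and Scg2 at 0.15 (SE 0.10). Of 21 tested receptors for the member peptides 0 were called and 16 were below 0, where 50.4% of all genes were above 0. Their median was -0.06, and unadjusted p was under 0.05 in 0 that were higher and 3 that were lower. Vipr1, a receptor for vasoactive intestinal peptide, stood at -0.16 (SE 0.05, adjusted p = 0.267). It was lower in 6 of 6 pairs, as 2.5% of all genes were. In Psmb5 against mSc Vipr1 stood at -0.16 too (SE 0.05, adjusted p = 0.599), and in Psmb8 against Psmb5 at 0.01. Of the 30 activity-regulated genes 0 were called, 15 lay above 0 and the median was -0.00. Among these, unadjusted p was under 0.05 in 3 that were higher and 0 that were lower.

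Markers of other cells were read the same way. With the block, 0 of 18 excitatory neuron genes, 0 of 19 astrocyte genes, 0 of 12 tested oligodendrocyte lineage genes, 0 of 4 tested microglial genes and 0 of 6 tested vascular genes were called in Psmb8 against mSc. Their unadjusted p was under 0.05 in 5, 2, 1, 0 and 2 of these genes in that order, against 10.7% of all genes. Summed over the list, oligodendrocyte lineage genes ranged from 260 to 868 CPM in the Psmb8 group and from 261 to 998 CPM in the mSc group, and all 12 tested had log2 fold changes below 0, with a median of -0.11, where 50.4% of all genes were above 0. Astrocyte genes summed to between 2612 and 6619 CPM in the Psmb8 group and to between 2768 and 7607 CPM in the mSc group, with a median log2 fold change of -0.04. Excitatory neuron genes summed to between 2679 and 3157 CPM in the Psmb8 group and to between 2757 and 3454 CPM in the mSc group. In numbers 1 to 6 they summed to 3157, 2680, 2679, 3003, 2697 and 2745 CPM in the Psmb8 group. The mSc libraries had 3454, 2835, 2793, 3392, 2757 and 2802 CPM, the highest sum of each number. Of the 18 genes 8 were above 0 and 10 below, with a median of -0.04. Camk2a stood at -0.16 (SE 0.04, adjusted p = 0.087) and Neurod6 at 0.13 (SE 0.06, adjusted p = 0.45). Nrgn and Cux2 each stood at -0.18 (SE 0.05, adjusted p = 0.132 and 0.176). The part of these cell markers in the members' differences was not tested.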

How the data were processed

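Poly(A) RNA of 18 libraries was measured. The authors deposited raw counts per gene ID, with 1 column per library and no pooling; STAR 2.4 and DESeq2 and the builds GRCm39 and mm10 are named in the submitters' processing notes, with no role. No source used here names the gene counter, its strand setting or the annotation, so reads of overlapping genes may be split in unknown ways. The members and gene lists, and the rule that named up to 4 genes per list (called ones, else those with the smallest p), were chosen with earlier results of these data known.

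Counts were filtered with filterByExpr, scaled by TMM and tested with edgeR 4.0.16 (R 4.3.3) by the quasi-likelihood test in 1 fit of all 18 libraries by group; Benjamini-Hochberg adjustment ran over 15671 genes, at a threshold of 0.05. Tested genes held 99.9% of each library's counts. A member had between 31 and 7305 counts in a library. Standard errors were derived from the F statistic. Symbols were found for 42462 of 43629 gene IDs; lengths came from GENCODE's annotation of GRCm38 and promoters from RefSeq (GRCm38.p6), builds that may differ from the one counted on.

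The groups share replicate numbers. After removal of group means, log2 CPM correlated at 0.45 to 0.73 in all 18 same-numbered pairs, against a mean of -0.12 over 90 other pairs, so the numbers were taken to pair the libraries, a decision from the data, since no label explains the numbers. The main fit had no block; blocked values are given beside it. Replicates of a group differed by more than sampling noise in all 45 pairs compared (chi-square per degree of freedom 2.94 to 38.4). Alternatives were the block, DESeq2 1.42.0, limma-voom (limma 3.58.1), DESeq2's size factors, no filter, a minimum mean of 5 CPM, only the groups compared, each library or number left out, and length or GC trends removed within the block. Correlations and list medians carry no test.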

Additional observations from a re-analysis of the deposited data

Results flagged for a closer look

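Of 54 sets of 6 values (the CPM of each gene in each group, and the log2 differences of its pairs), 5 had a highest or lowest value whose gap to the nearest other, as a share of the set's range, exceeded Dixon's critical value of 0.625; chance alone gives such a gap in about 1 set in 20. In 3 of them the Psmb8 library of number 1 was the highest: 30.5 CPM for Tac1, 48.9 CPM for Penk and 38.8 CPM for Pnoc. In the other 2 the library of number 5 was the lowest for Vip, at 2.95 CPM in the Psmb5 group and 3.14 CPM in the mSc group.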

How the results depend on the processing

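Without the block 1 gene was called in Psmb8 against mSc, 1 in Psmb5 against mSc and 2 in Psmb8 against Psmb5. These were Psmb8, Psmb5 and both of them, the genes that the lentivirus carried, so no other gene was called. With the replicate block the counts were 51, 1 and 6. DESeq2 without the block gave 2 and 4 genes in the comparisons of Psmb8 with mSc and with Psmb5. Within the block, Psmb8 against mSc gave 60 genes with a length trend removed, 55 with a GC trend removed, 135 with DESeq2, 62 with limma-voom, 321 with no low-count filter, 56 with DESeq2's size factors and 2 without numbers 3 and 6. Psmb8 against Psmb5 gave 8, 10, 23, 7, 166, 6 and 4 genes in that order. Psmb5 against mSc gave 11 with blocked DESeq2, 140 with the block and no filter, and 2 with the block without numbers 3 and 6. The blocked alternatives with DESeq2, limma-voom, size factors and no filter were chosen after seeing the data. Leaving out 1 library without the block gave 1 to 2 genes in Psmb8 against mSc. Leaving out numbers 1 to 6 in turn with the block gave 57, 19, 9, 59, 41 and 19 genes there, 4, 4, 4, 20, 5 and 4 in Psmb8 against Psmb5, and up to 3 (without number 6) in Psmb5 against mSc. The count that differed between numbers, 10078, stayed within 1.5 times under every alternative run.

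For the members, Nppc was called in Psmb8 against mSc in 8 of 14 blocked settings and in none without the block. Blocked limma-voom also called Vip (adjusted p = 0.0415) and Pnoc (adjusted p = 0.0474) there. In Psmb8 against Psmb5, Cort was called in 4 of 14 blocked settings, among them DESeq2 (adjusted p = 0.00152) and a GC trend removed (adjusted p = 0.0421). The block with no filter called Nppc, Pnoc, Vip, Cort, Sst and Npy in Psmb8 against mSc, all of these but Vip in Psmb8 against Psmb5, and Nppc in Psmb5 against mSc (adjusted p = 0.00149). These calls came with fold changes close to the filtered ones. For Sst in Psmb8 against mSc, edgeR gave 0.395 (adjusted p = 4.33e-18) without the filter and 0.402 (adjusted p = 0.129) with it. The reason for this fall in adjusted p was not tested, so these calls are not read as stronger evidence. In Psmb5 against mSc the blocked value of Nppc was 0.19 without number 3. Directions changed only for values near 0 or with a wide spread. With limma-voom Tac1 stood at -0.046 in Psmb8 against mSc, 0.040 in Psmb5 against mSc and -0.087 in Psmb8 against Psmb5, and blocked DESeq2 put it at -0.0011 in Psmb8 against mSc. Penk in Psmb8 against Psmb5 was -0.0036 with the block, -0.0080 with limma-voom, and in the blocked fits -0.0135 (length), -0.0053 (GC), -0.0091 (DESeq2), -0.0098 (no filter) and -0.0044 (size factors). Without numbers 3 and 6 the block gave -0.062 for Cck in Psmb8 against mSc and -0.023 for Penk in Psmb5 against mSc. In blocked fits of Psmb8 against mSc, Cck was -0.024 without number 2 and -0.051 without number 3, Tac1 was -0.22 without number 1 and -0.034 without number 2, and Penk was -0.014 without number 1. In Psmb5 against mSc the block gave 0.0158 for Sst and 0.0014 for Npy without number 5, and for Penk -0.034 without number 2 and -0.0299 without number 3. In Psmb8 against Psmb5 it gave -0.19 for Tac1 without number 1, and for Penk -0.11, -0.048 and -0.0103 without numbers 1, 5 and 6.

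With 1 library left out and no block, Psmb8 against mSc was as low as 0.22 for Sst (without Psmb8 library 2) and 0.23 for Npy (without mSc library 3), and ran between -0.081 and 0.15 for Cck, -0.57 and 0.60 for Tac1, and -0.16 and 0.17 for Penk. Psmb5 against mSc ran between -0.30 and 0.036 for Sst, -0.38 and 0.063 for Npy, -0.15 and 0.084 for Cck, -0.34 and 0.25 for Tac1, -0.060 and 0.15 for Penk, and -0.27 and 0.065 for Lamp5. Psmb8 against Psmb5 ran between -0.027 and 0.17 for Cck, -0.48 and 0.60 for Tac1, and -0.17 and 0.092 for Penk. With number 5 left out the test between numbers no longer called Vip (adjusted p = 0.0846). The cause of these changes was not tested.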
